A study of Drosophila melanogaster with 2 samples.

Results

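CG7101-GFP was mapped at the genes of 9 insulator proteins of Drosophila melanogaster: Cp190, CTCF, su(Hw), mod(mdg4), Ibf1, Ibf2, dwg, pita and ZIPIC. They were chosen by name as CP190, its DNA-binding partners and related insulator zinc finger proteins, with earlier results of these data known. They are 9 of the 13945 protein-coding genes on 6 chromosome arms. Chromatin immunoprecipitation and sequencing (ChIP-seq) was done on whole adult females, of unstated age, from a transgenic line that stably expresses CG7101 with GFP at its C-terminus. Sonicated chromatin was precipitated with an anti-GFP antibody, in 2 biological replicates that form the only group, so that the values describe where the tagged protein was found in a mixture of all adult tissues. The submitters deposited 30000 peaks for each replicate, 30000 for the pooled replicates and 6486 in a list thresholded by the irreproducible discovery rate (IDR) between replicates. The last are called IDR peaks here. At the 9 genes every IDR summit had the same signal rank in the IDR list as in the pooled list, down to rank 6067. Membership of the IDR list thus followed pooled signal at these genes. It did not require a peak in each replicate, since an IDR summit of pita fell in no replicate 2 peak. The labels state neither which promoter drives the tagged gene nor how many flies were pooled.

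Insulators are DNA elements that separate neighbouring regulatory domains, and in the fly they act through zinc finger proteins that recognise the DNA and cofactors that those proteins recruit. CP190, a BTB and zinc finger protein first known from the centrosome, is the cofactor shared by most of them. The proteins that bring it to DNA include CTCF, Su(Hw), Pita, ZIPIC and the Ibf1 and Ibf2 pair, and many of the sites they occupy lie at promoters, often between divergent genes.

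Of the 9 genes, 5 (55.6%) had an IDR summit within 500 bp of a transcription start site (TSS), against 33.3% of all protein-coding genes. These were Cp190, CTCF, su(Hw), mod(mdg4) and pita. Counting summits anywhere inside the gene as well gave the same 5 of 9, against 36.6% of all genes. The strengths differed widely. Cp190 had a signal of 2065, whereas the other 4 promoters lay between 175 and 205. Signal is the peak strength written by the authors' peak caller, on a scale that is not stated, and it is compared only within a list. Over all IDR peaks the signal lay between 142 and 11013, and the median was 245. The median of the strongest promoter signal was 198 over the 5 genes, below the 289 over all 4641 genes with an IDR promoter summit. Of the remaining genes, Ibf1, Ibf2 and dwg had promoter summits in the pooled list only, and ZIPIC had none. With 9 genes and 1 group no test was made of these shares.

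**Figure D1:**
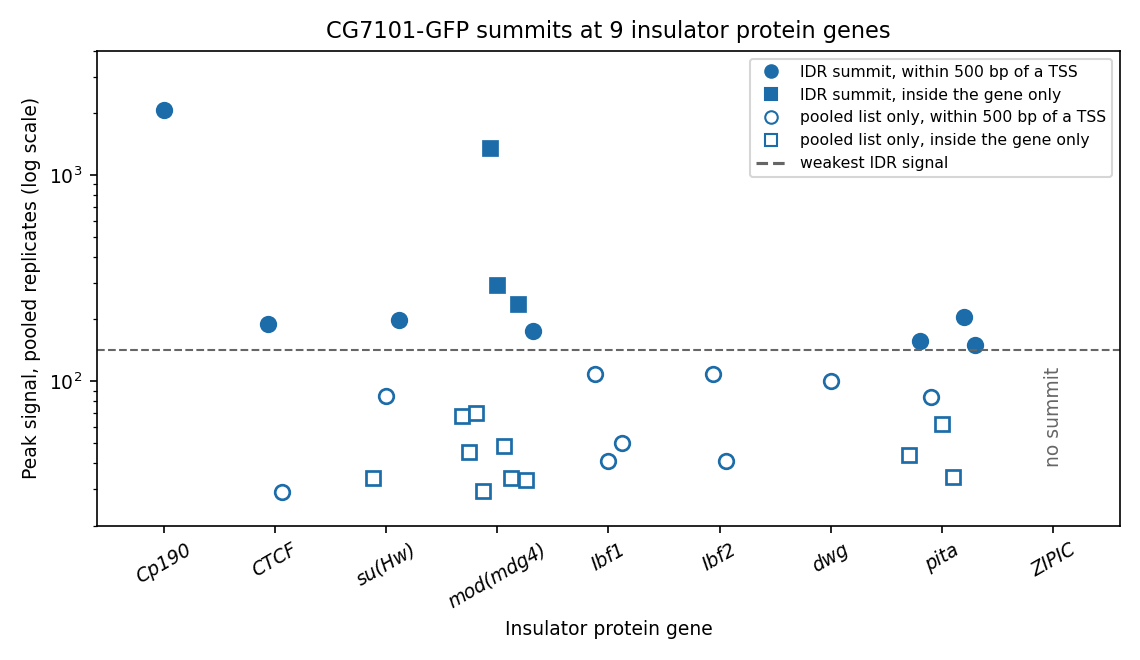
Signal of every summit at the 9 genes (y axis, log scale, signal of the pooled replicates, no unit stated), by gene (x axis). Filled symbols are IDR summits, open symbols occur only in the pooled list, circles lie within 500 bp of a TSS, squares lie only inside the gene, and the dashed line is the weakest IDR signal of 142. Cp190 at 2065 and an intronic summit of mod(mdg4) at 1354 stand above the other IDR summits, which lie between 150 and 294.

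The sequences under or beside the summits are shown first. They are from the RefSeq Release 6 assembly, the build that corresponds to dm6, and each is read 5′ to 3′ on its gene's own strand with annotated untranslated exons left out. Capitals mark TATCGATA, the DNA replication-related element (DRE), CGATA, the core recognised by the insulator protein BEAF-32, and GAGAG, the word of GAGA factor. TATCG is CGATA on the opposite strand, and TATCGATA contains CGATA on both strands. The Cp190 sequence is the whole interval between its start and that of the divergent gene CG4338 (chr3R:15275242-15275521, minus strand). The CTCF (chr3L:7356714-7356779, minus) and mod(mdg4) promoter sequences (chr3R:21377402-21377491, minus) run upstream from the TSS and show where the DRE lies. Neither contains its summit, which lies in the 5′ UTR. The su(Hw) sequence covers the summit to 100 bp on either side (chr3R:14308868-14309068, minus).
Cp190 to CG4338: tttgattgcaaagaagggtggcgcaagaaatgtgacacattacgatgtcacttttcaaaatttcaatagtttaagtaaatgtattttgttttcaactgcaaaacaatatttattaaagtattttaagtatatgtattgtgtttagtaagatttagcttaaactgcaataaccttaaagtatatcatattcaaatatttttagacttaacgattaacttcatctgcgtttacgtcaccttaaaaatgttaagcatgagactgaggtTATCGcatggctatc
CTCF: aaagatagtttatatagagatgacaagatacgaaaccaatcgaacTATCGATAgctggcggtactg
mod(mdg4) promoter: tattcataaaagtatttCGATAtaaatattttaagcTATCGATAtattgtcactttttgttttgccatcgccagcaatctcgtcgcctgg
su(Hw): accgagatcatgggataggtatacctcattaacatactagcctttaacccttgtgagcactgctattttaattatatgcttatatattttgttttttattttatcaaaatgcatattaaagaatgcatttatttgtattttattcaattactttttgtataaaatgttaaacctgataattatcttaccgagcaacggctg

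Cp190 (FBgn0000283, 3R, 15270432 to 15275241, minus strand) carried the strongest promoter summit of the group. The IDR peak ran from 15275150 to 15275612, and its summit at 15275385 lay 144 bp upstream of the first Cp190 TSS, outside the gene. It ranked 90 of 6486 by signal, within the strongest 1.39% of IDR peaks. The replicates gave a signal of 1211 and rank 78 in replicate 1, and a signal of 860 and rank 111 in replicate 2. Both placed it among the strongest 0.37% of their lists, and the ranks differed by 1.42-fold. Over all IDR summits found in both replicates the median difference was 1.34-fold, and 42.1% of them differed by at least as much as Cp190, so its replicates were about as close as is usual here.

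The Cp190 summit was not private to Cp190. CG4338 starts 281 bp away on the plus strand, and the summit lay 137 bp upstream of it, nearly midway between the divergent starts. Such sharing was common: 3 of the 5 genes with an IDR promoter summit shared one with a TSS of another protein-coding gene, against 57.0% of all genes with such a summit. The window of 201 bp around the Cp190 summit held 24.4% G and C, and 5.07% of the IDR windows had as little or less. None of the 6 words searched occurred in that window, and the copy of CGATA printed in capitals lies farther than 100 bp from the summit. Ordered by their strongest promoter signal, Cp190 took place 86 of 4641 genes, at 1.85% of the list. Its nearest neighbours in that order were Wdr24 and IntS11, with a signal of 2080 each, above it, and CG4338, by the same peak, and GstE13, with a signal of 2058, below it. Wdr24 is a component of the GATOR complex that controls TORC1, and IntS11 is the endonuclease of the Integrator complex.

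**Figure D2:**
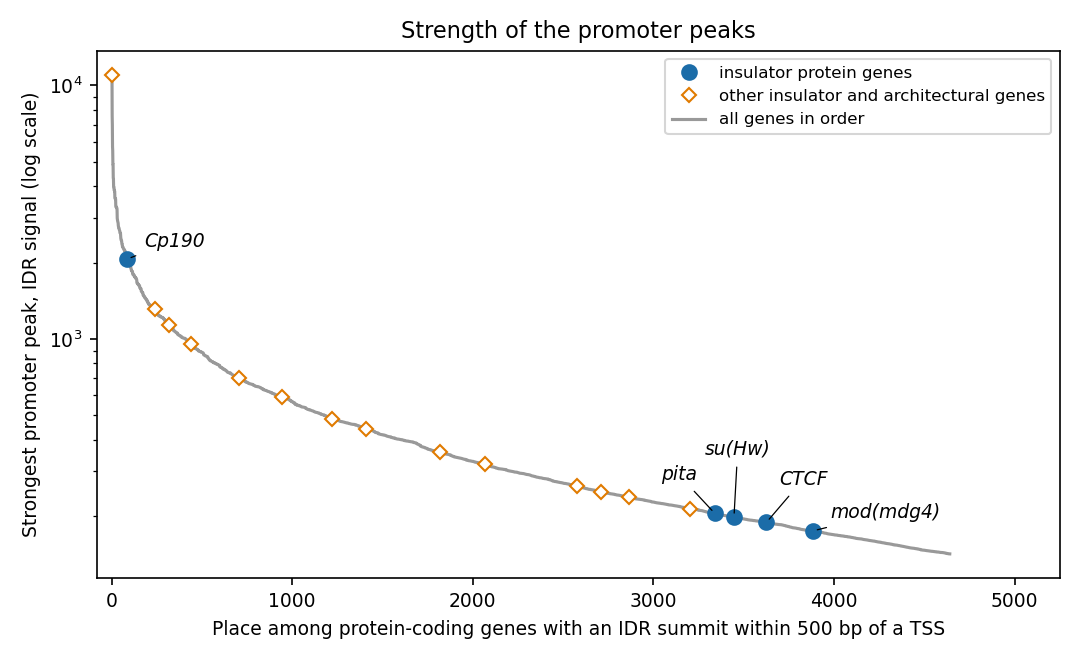
Strongest IDR signal within 500 bp of a TSS (y axis, log scale) against place in the order of the 4641 protein-coding genes that have one (x axis). Blue circles are the insulator protein genes, open diamonds other insulator and architectural protein genes, and the line all genes. Cp190 is at place 86, and pita, su(Hw), CTCF and mod(mdg4) lie between places 3340 and 3885.

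CTCF (FBgn0035769, 3L, 7353578 to 7356713, minus strand), the fly counterpart of the vertebrate insulator protein, had a much weaker summit. Its IDR peak, spanning 7356471 to 7356886, reached a signal of 189. The summit at 7356679 was in the 5′ UTR, 34 bp downstream of the TSS. It was the peak of rank 4601. The replicates gave a signal of 95.4 and rank 5232 in replicate 1, and 99.7 and rank 3950 in replicate 2, a 1.32-fold difference in rank. The DRE in the printed sequence lies 51.5 bp upstream of the summit, measured to the centre of the word. Farther upstream, an annotated Quasimodo transposable element starts 143 bp from the TSS and another 190 bp from it. A weak pooled summit at 7356980 (signal 29.1, −log10 q 0.61) lay inside the second of these elements. It had a peak in replicate 1 (signal 24.9, rank 20746) and none in replicate 2. How reads from repeated sequence were placed is not stated, and the part of the element's other copies in this weak summit was not tested.

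At su(Hw) (FBgn0003567, 3R, 14304455 to 14308589, minus strand), whose product binds the gypsy insulator, the IDR summit was closer to a neighbour than to the gene itself. It lay at 14308968 in a peak from 14308760 to 14309175, 379 bp upstream of the su(Hw) TSS and 121 bp upstream of Polr2I, a subunit gene of RNA polymerase II that starts 500 bp away on the opposite strand. The signal was 198, rank 4318, with 112 and rank 4264 in replicate 1, and 80.2 and rank 5306 in replicate 2. The ranks differed by 1.24-fold. With a promoter window of 250 bp in place of 500 bp, su(Hw) had no IDR promoter summit and the count fell to 4 of 9, against 28.6% of all genes. The window around the summit held 27.9% G and C and none of the words. The pooled list added a summit at 14308138 in the 5′ UTR, 451 bp downstream of the TSS (signal 84.8). The replicates differed there, with a signal of 19.2 and rank 26481 in replicate 1, and 60.5 and rank 7425 in replicate 2. That 3.57-fold gap in rank was reached by 2.19% of pooled summits matched in both replicates. Another, at 14306226 in a coding exon, was weaker (33.9).

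The mod(mdg4) gene (FBgn0002781, 3R, 21350846 to 21377401, minus strand) encodes BTB proteins, of which the best known joins Su(Hw) at gypsy. All share their first exons, and many gain a different end by trans-splicing to separate precursor transcripts made from within the locus. It held 4 IDR summits, a number reached by 2.07% of all protein-coding genes and by 17.4% of the 1013 genes of at least 20000 bp (the gene spans 26556 bp). Its own promoter was the weakest of the 4. The summit at 21377391 lay 10 bp downstream of the TSS in the 5′ UTR, in a peak from 21377183 to 21377598 with a signal of 175 and rank 5069. The replicates were closely matched, at 94.6 and rank 5284 in replicate 1, and 78.6 and rank 5435 in replicate 2. A DRE lies 60.5 bp upstream of this summit, with a further copy of CGATA beside it in the printed sequence.

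The strongest summit of the gene lay deep inside it, at the starts of precursors. At 21365441, 11960 bp into the gene, the IDR peak from 21365220 to 21365648 had a signal of 1354 and rank 215, within the strongest 3.31%. It had a signal of 829 and rank 176 in replicate 1, and 524 and rank 295 in replicate 2. The ranks differed by 1.68-fold, and 24.3% of IDR summits differed at least as much. The Ensembl annotation lists 23 precursor genes in the locus, named pre-mod(mdg4) with a letter, 14 of them on the minus strand as mod(mdg4) is and 9 on the plus strand. The summit was 47 bp downstream of the start of pre-mod(mdg4)-E and 151 bp upstream of a start shared by the precursors AB, C and E, all on the minus strand. It was also 168 bp upstream of the start shared by 7 precursors on the plus strand. The interval between the divergent starts is only 120 bp.

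A further IDR summit at 21373609 (peak 21373534 to 21373735, signal 294, rank 2547) lay 34 bp upstream of the start of the minus-strand precursors AA, N and O. It had 143 and rank 3075 in replicate 1, and 148 and rank 2286 in replicate 2. The remaining one, at 21376475 (peak 21376267 to 21376682, signal 236, rank 3413), was in an intron 926 bp from the mod(mdg4) TSS and at no precursor start. It had 137 and rank 3231 in replicate 1, and 104 and rank 3692 in replicate 2. The sequences at these 3 summits outside the promoter are shown next: the interval between the divergent precursor starts, which lies beside the summit at 21365441 and does not contain it (chr3R:21365489-21365608), the sequence upstream of the AA, N and O start (chr3R:21373576-21373709) and the window around 21376475 (chr3R:21376375-21376575), all on the minus strand with capitals as before.
mod(mdg4) divergent precursors: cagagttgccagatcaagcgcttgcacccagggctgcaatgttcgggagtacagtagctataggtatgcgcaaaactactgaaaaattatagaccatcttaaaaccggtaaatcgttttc
mod(mdg4) AA, N and O: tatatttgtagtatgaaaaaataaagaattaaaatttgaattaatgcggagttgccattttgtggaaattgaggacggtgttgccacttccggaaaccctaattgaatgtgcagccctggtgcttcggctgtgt
mod(mdg4) intron: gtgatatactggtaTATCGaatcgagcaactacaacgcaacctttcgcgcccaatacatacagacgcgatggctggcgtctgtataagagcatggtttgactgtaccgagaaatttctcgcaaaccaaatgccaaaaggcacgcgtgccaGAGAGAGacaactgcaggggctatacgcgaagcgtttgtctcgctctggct

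The windows around the summits at 21365441 and 21373609 held 27.9% and 37.3% G and C and none of the words. The intronic window at 21376475 held 50.2%, above the upper quartile of 42.8% over all IDR windows. It had CGATA 84.0 bp upstream of the summit and overlapping copies of GAGAG 52.0 and 54.0 bp downstream.

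Taken by start position, the precursors have 7 starts, of which 4 had an IDR summit within 500 bp and 6 a pooled summit. By gene, 13 of the 23 precursors had an IDR promoter summit, against 33.3% of all protein-coding genes. These counts rest on only 2 IDR summits, at 21365441 and 21373609. Since several precursors share a start and several starts share a summit, these are not separate observations. Only the internal start of the precursors U and V had no summit within 500 bp, the nearest being 2688 bp away. The 7 pooled-only summits of mod(mdg4) ranged from 29.4 to 70.2 with a median of 45.6. The strongest, at 21360145, lay 31 bp upstream of the start of the plus-strand precursors T and Z. It was uneven between replicates, with 18.2 and rank 27883 in replicate 1, and 52.9 and rank 8634 in replicate 2. Of the 7, 3 had a peak in both replicates, 3 in replicate 1 only and 1 in neither. The summit at 21376674, among the 3 in replicate 1 only, was matched to the replicate 1 peak that also matched the IDR summit at 21376475. A replicate 1 peak of its own is therefore not shown.

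**Figure D3:**
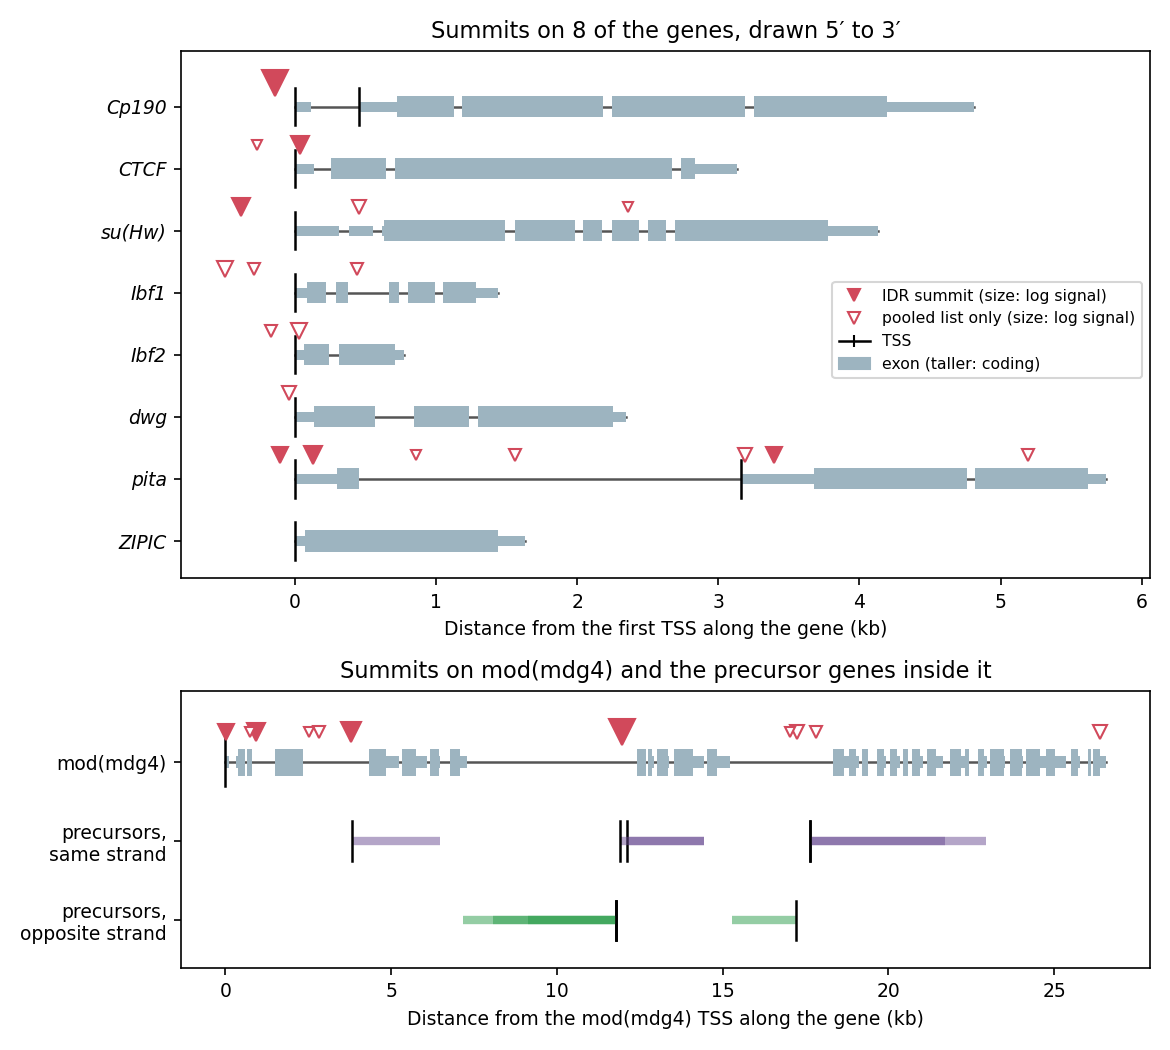
Position of the summits (triangles, larger with log signal; filled for IDR summits, open for the pooled list only) on the 9 genes, drawn 5′ to 3′ in kb from the first TSS. Exons are boxes, taller where coding, and vertical ticks are TSSs. In the lower panel bars are the spans of the mod(mdg4) precursors on the same strand and on the opposite strand, with a tick at each bar's outer start, and the largest triangle of mod(mdg4) stands where bars of both strands begin.

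Ibf1 (FBgn0037670, 3R, 9258964 to 9260400, plus strand) and Ibf2 (FBgn0037669, 3R, 9257727 to 9258501, minus strand) encode BED-finger proteins that act together with CP190. They are divergent neighbours whose starts lie 463 bp apart, and they shared 2 pooled summits. Neither had an IDR summit. The strongest pooled summit, at 9258472, was 29 bp downstream of the Ibf2 TSS in its 5′ UTR and 492 bp upstream of Ibf1. Its signal was 108, with 67.0 and rank 7940 in replicate 1, and 38.9 and rank 11942 in replicate 2, and its −log10 q was 4.32, the highest the pooled list holds. A summit at 9258671, between the starts, had a signal of 41.3 and no separate peak in replicate 2. The other, at 9259407 in an intron of Ibf1 and assigned to Ibf1 only, had 50.5. The nearest IDR summit (9260574, signal 382) was 1610 bp from the Ibf1 TSS and only 64 bp from that of ATP6AP2, an accessory subunit gene of the vacuolar proton pump.

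For dwg (FBgn0000520, X, 2727698 to 2730042, plus strand), which encodes the Zeste-white 5 protein of the scs insulator, the pooled list held a summit at 2727656. It lay 42 bp upstream of the TSS and had a signal of 100 and a −log10 q of 4.32. Replicate 1 gave 42.5 and rank 12621, and replicate 2 gave 64.9 and rank 6834. The ranks differed by 1.85-fold, a gap that 19.1% of matched pooled summits reached. At 100 and 108, dwg and the Ibf pair lay below the weakest IDR signal of 142 and are not in the IDR list, although each had a peak in both replicates. The sequences upstream of the Ibf2 TSS (chr3R:9258502-9258572, minus strand) and of the dwg TSS (chrX:2727569-2727697, plus strand) are shown as the promoters with a summit below the IDR list. A DRE whose last base is the Ibf2 TSS, 32.5 bp upstream of the summit, and a CGATA that spans the dwg TSS are cut short by the end of each printed stretch.
Ibf2: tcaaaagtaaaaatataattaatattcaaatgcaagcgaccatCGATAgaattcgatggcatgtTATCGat
dwg: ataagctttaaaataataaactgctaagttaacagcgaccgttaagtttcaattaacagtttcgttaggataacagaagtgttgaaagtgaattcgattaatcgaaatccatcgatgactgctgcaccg

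ZIPIC (FBgn0039740, 3R, 30035240 to 30036870, minus strand), a zinc finger protein gene named for the interaction of its product with CP190, had no summit within 500 bp of its TSS or inside it in the IDR or the pooled list. In the pooled list at least 1 such summit occurred at the other 8 genes, against 66.6% of all protein-coding genes. Replicate 2 alone had a peak 5 bp upstream of the ZIPIC TSS, near the end of its list (signal 16.5, rank 27242, −log10 q 0.84). In replicate 1 the nearest summit was 2844 bp away. The nearest IDR summit (30039712, signal 142, rank 6481) lay 2842 bp from ZIPIC and 7 bp from the TSS of Sry-alpha. Sry-beta, on the same strand as Sry-alpha, has a start at the same distance from the ZIPIC TSS, 2849 bp. The tagged protein was thus not detected at ZIPIC in the IDR, pooled and replicate 1 lists, which does not show that it is absent there.

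The last gene, pita (FBgn0034878, 2R, 23548967 to 23554712, minus strand), encodes a zinc finger protein that binds boundaries of the bithorax complex and recruits CP190. It had 3 IDR summits, with signals of 150, 157 and 205, all below the median of 245 over the IDR list. The strongest, at 23554583 in the 5′ UTR and 129 bp downstream of the first TSS, had a signal of 205 and rank 4140. By the replicate peaks that held it, it was the least even of the matched IDR summits at the 9 genes. It had 159 and rank 2669 in replicate 1, and 66.5 and rank 6643 in replicate 2. That 2.49-fold gap was reached by 6.1% of IDR summits. A neighbouring summit at 23554816, 104 bp upstream of the TSS (signal 150, rank 6067), fell in the same replicate 1 peak and in no replicate 2 peak. That replicate 1 peak had its own summit within 100 bp of 23554816 and not of 23554583. The gap at 23554583 thus depends on matching by the peak that holds a summit. The third, at 23551317 (signal 157, rank 5781), lay 234 bp downstream of an internal pita TSS and 4 bp from the TSS of Dcp-1, a caspase gene that overlaps pita on the opposite strand. It had 90.9 and rank 5556 in replicate 1, and 67.1 and rank 6571 in replicate 2.

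The call at pita depended on how many replicate 2 peaks were counted. When the 6486 strongest peaks of replicate 2 alone replaced the IDR list, pita had no promoter summit and the count was 4 of 9, against 32.9% of all genes. Its replicate 2 peaks, at ranks 6571 and 6643, lay just below that list length. With the 6486 strongest of replicate 1 alone it was 5 of 9, against 33.0%. A further 4 summits of pita occurred only in the pooled list, with signals from 34.2 to 83.5. The strongest, at 23551525, lay in the 5′ UTR 26 bp downstream of the internal TSS. Those at 23553152 (signal 62.1, in an intron of pita and a coding exon of Dcp-1) and 23549520 (43.8, in a coding exon of pita) had, like the strongest, a peak in replicate 1 only. The weakest, at 23553852 (34.2, in an intron), had a peak in both replicates.

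Across the 9 genes the lists held 10 IDR summits and 28 pooled summits, of which 18 were not IDR summits and ran from 29.1 to 108. A summit near both Ibf genes is counted as 1. Of the 10 IDR summits, 9 fell inside a peak of both replicates, against 97.6% of all IDR summits, the exception being pita at 23554816. Of the 28 pooled summits 18 did, against 64.7% of all pooled summits. Both shares were near those of the whole lists. By location, 4 of the 10 IDR summits lay in a 5′ UTR, 3 in an intron and 3 outside the gene. The 3 in an intron were all in mod(mdg4), and the 3 outside the gene all lay within 500 bp upstream of a TSS. The share of all IDR summits at such locations was not computed, so these counts only describe the 9 genes.

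**Figure D4:**
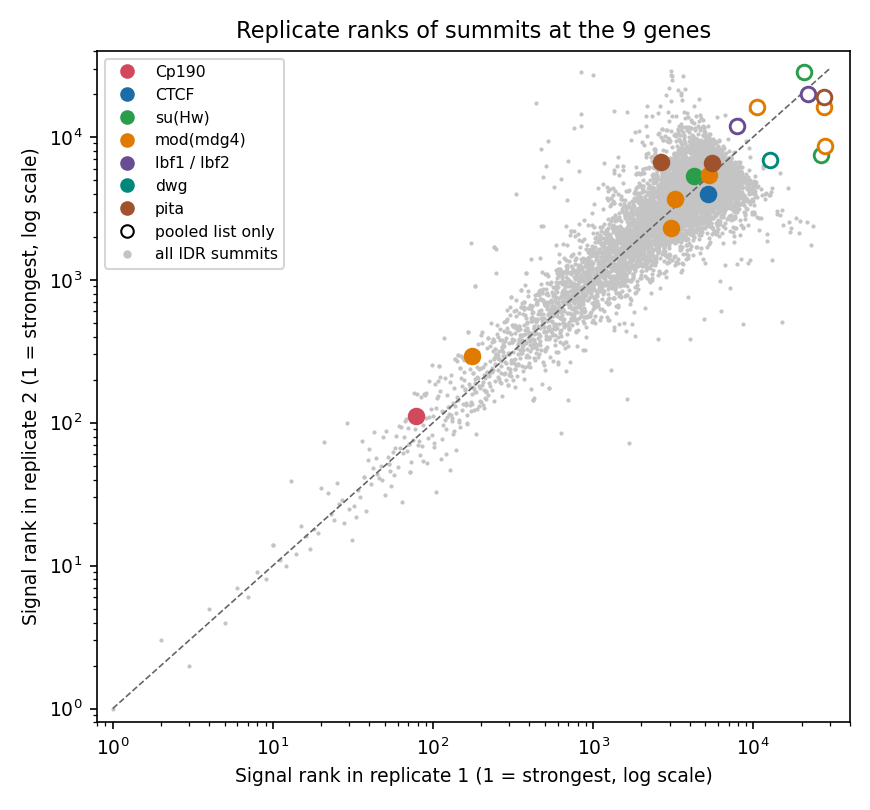
Signal rank in replicate 1 (x axis) and replicate 2 (y axis) of each summit of the 9 genes with a peak in both, on log scales with 1 the strongest. Summits lacking a peak in a replicate, among them the IDR summit of pita at 23554816, are not drawn. Filled circles are IDR summits, open circles summits of the pooled list only, grey dots all IDR summits matched in both replicates, and the dashed line marks equal ranks. Cp190 at ranks 78 and 111 and mod(mdg4) at 176 and 295 lie apart from the other filled circles, which lie between ranks 2286 and 6643.

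Of the 6 words searched on both strands within 100 bp of the summits, the DRE occurred at 3 of the 10 IDR summits of these genes, namely CTCF, the mod(mdg4) promoter and pita at 23554816. It occurred at 5.69% of all IDR summits and in 7.84% of windows of the same length around the TSSs of protein-coding genes. The 3 hits lay between 39.5 and 60.5 bp from their summits. The count depended on the window. Within 50 bp it was 1 of 10, against 3.04% of all IDR summits and 5.56% of TSS windows. Within 200 bp it was 5 of 10, against 8.54% and 9.13%. At 200 bp the same DRE of pita falls in the windows of its summits at 23554583 and 23554816, so the 5 are not separate copies. CGATA occurred at 6 of 10, against 35.1% of all IDR summits and 39.4% of TSS windows, and 3 of these 6 hold it as part of a DRE. Within 50 bp CGATA occurred at 3 of 10, against 20.2% of all IDR summits. GAGAG occurred at 2 of 10, against 24.0% and 22.5%, and at 0 of 10 within 50 bp, against 11.8% of all IDR summits. Motif 1 (GGTCACACT), a word of the promoters of broadly used genes, the core of the fly CTCF motif (AGNNGGCGC) and the core of the Su(Hw) motif (GCATACTT) each occurred at 0 of 10, against 2.93%, 2.64% and 1.09% of all IDR summits. Within 200 bp, Motif 1 and the CTCF core each occurred at 1 of 10, against 5.27% and 4.59% of all IDR summits. The strongest 2 summits, at Cp190 and inside mod(mdg4), held none of the words. A match is a description of the sequence, and the absence of a word says only that these letters are not in the window.

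The 9 genes were set beside 24 other genes for insulator and architectural proteins. An IDR promoter summit occurred at 5 of the 9 genes (55.6%) and at 14 of the 24 (58.3%), against 33.3% of all protein-coding genes. The median strongest signal was 198 over the 5 and 464 over the 14, against 289 over all genes with such a summit. The strongest of the 24 were Chro, a chromodomain partner of BEAF-32 (11013), SA1, a cohesin subunit (1308), and Dref, the factor that binds the DRE (1132). Each of these signals was also that of another protein-coding gene, namely Ssl1, Gas41 and RpL13 in that order. Elba1 and Elba3, which encode parts of an early embryonic boundary complex, and Nipped-B, the cohesin loader, had no summit in the pooled list. This list of 24 was drawn up with earlier results of these data known, and the difference in signal was not tested.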

How the data were processed

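Per the labels, chromatin of 2 biological replicates was sonicated and an anti-GFP antibody was used for precipitation. Per the descriptions deposited with the files, peaks were called on each replicate and on the pooled replicates against a control, which was not analysed here, and the IDR list was derived from those lists on dm6. For the aligner, for the caller of the peaks and for the IDR cut-off, no name or value is given in the sources used here. The deposited lists give a signal per peak, on an unstated scale, a −log10 of the q value, which equals 4.32 in every IDR peak and was not used for ranking, and the summit as an offset from the peak start. Read counts were not analysed here, so the depth per replicate and the precision it gives are unknown.

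From these lists, each summit was assigned to a gene when it lay within 500 bp of an annotated TSS or inside the gene (Ensembl release 115, protein-coding genes on 6 arms). A summit was matched to the strongest replicate peak that holds it. Ranks follow signal within a list. Arm lengths of the Release 6 reference were compared with the largest peak ends before use, coordinates count from 1, and words were read from windows of 100 bp to either side of a summit. Python 3.11.15, numpy 2.4.6, pandas 2.3.3 and matplotlib 3.10.9 were used, and the assignment and word search were tested on simulated data. With 2 replicates of 1 group no test over samples was possible, so counts stand beside the share over all genes or summits. Every IDR summit of the 9 genes is named. Pooled-only summits are named for genes with at most 5, otherwise as a range with the strongest. Neighbours are named by shared summits, 2 genes on either side of Cp190 by signal, and of the 24 other genes the 3 strongest and those without a pooled summit. Motifs 6 and 7 were planned and not searched. The 9 genes, the list of 24 and the words were chosen with earlier results of these data known. Alternatives changed the promoter window, the peak list, the replicate used, the start sites counted, the annotation, the matching of replicates and the word window.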

Additional observations from a re-analysis of the deposited data

How the results depend on the processing

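No paired analysis was possible because the 2 replicates form 1 group and no test was made. The counts over the 9 genes moved by more than 1.5 times when the peak list was shortened or lengthened, which by construction changes how many summits there are. With the stronger 50% of the IDR list by signal, 1 gene (Cp190) had a promoter summit, 2 (Cp190 and mod(mdg4)) had a summit at the promoter or inside, and 3 summits were left, against 19.8% and 22.8% of all genes. With the whole pooled list the counts were 8, 8 and 28, against 62.9% and 66.6% of all genes. The other 23 counts were within 1.5 times: 4 or 5 genes with an IDR promoter summit under windows of 250 and 1000 bp, under start sites of protein-coding transcripts only, and with either replicate left out (4 to 5 genes and 7 to 9 summits). With windows of 250 and 1000 bp the share of all protein-coding genes was 28.6% and 36.8%. Summits matched in both replicates numbered 8 or 9 of 10. The RefSeq annotation and the counting of precursor starts as starts of mod(mdg4) were chosen after seeing the data and left 5 genes and 10 summits. With precursor starts counted, the strongest promoter peak of mod(mdg4) moved to the top 0.717% of the pooled list, against 16.9% by its own TSS, and to 11.4% with a window of 1000 bp. Without replicate 1, the strongest promoter peak of pita lay at 21.9% of the list and without replicate 2 at 8.9%, against 13.8% in the pooled list. Pita was not alone in this. Without replicate 1, Ibf1 and Ibf2 lay at 39.8% against 29%, su(Hw) at 17.7% against 14.4% and mod(mdg4) at 18.1% against 16.9%. Cp190 lay at 0.37% against 0.3%. Shifts the other way occurred at CTCF, with 13.2% against 15.3%, and dwg, with 22.8% against 31.4%. The word counts that changed by more than 1.5 times with a window of 50 or 200 bp are given with the words. Depth is unknown, so the weakest pooled summits and their absence cannot be weighed against read numbers.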

Other observations

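Peak widths repeated. Of the 10 IDR summits at the 9 genes, 7 lay in peaks exactly 416 bp wide, a width shared by 84.2% of all pooled peaks and by 33.3% of all IDR peaks. The exceptions were Cp190 at 463 bp, the strongest mod(mdg4) summit at 429 bp and the mod(mdg4) summit at the start of the precursors AA, N and O at 202 bp. The median width was 420 bp in replicate 1 and 380 bp in replicate 2.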
